A study of Mus musculus with 7 samples.

Results

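The insulin-like growth factor (IGF) system was examined in mouse thyroid tissue and in organoids grown from it. The genes were chosen by name, as 10 ligands, receptors and binding proteins of the system. Of these, 9 have a row among the 30879 genes of the table: the ligand Igf1, the receptors Igf1r, Igf2r and Insr, and the binding proteins Igfbp2, Igfbp3, Igfbp4, Igfbp5 and Igfbp7. Igf2 was not analysed here. The assay was SORT-seq, in which single live cells are sorted into the wells of plates and the 3′ ends of their transcripts are counted by unique molecular identifiers (UMIs). There were 2 samples of thyroid tissue (tissue 1 and 2), 3 of late passage thyroid follicular cell organoids (late TFCO 1 to 3) and 2 of early passage (early TFCO 1 and 2). All came from wild type C57BL/6 animals, without a drug or genetic comparison, and the study derived its organoids from surplus material of female mice. TFCOs were grown in basement membrane extract with B27 supplement, which contains insulin, and with R-spondin 3, the TGF-beta receptor inhibitor A83-01, forskolin (FSK, which raises cyclic AMP), EGF and FGF10. The labels tie no TFCO to an animal, so the p-values measure the spread between these samples.

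IGF1 is a secreted ligand that acts through the IGF1 receptor, a tyrosine kinase, and insulin acts through the closely related insulin receptor encoded by Insr. The product of Igf2r takes up IGF2 and mannose 6-phosphate-tagged enzymes and has no kinase domain. Binding proteins hold IGFs in extracellular fluid and set how much ligand reaches the receptors, and IGFBP7 binds IGFs weakly. Thyroid hormone is made by thyroid follicular cells (TFCs), and in culture insulin or IGF1 is classically needed beside thyrotropin for them to grow.

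Levels are given as mean UMIs per 10000 UMIs of a cell over the cells of a class in 1 sample. Cells of at least 1000 UMIs were used, 578 from tissue and 1457 from TFCOs. The deposited wells summed to between 1406925 and 4703472 UMIs per sample, and the median depth of the cells used lay between 3368 and 12380.5 UMIs, deepest in late TFCO 2 and early TFCO 1. Tissue cells formed 9 clusters, grouped by marker genes into 87 TFC-like, 212 endothelial-like, 88 mural-like (the contractile cells of vessel walls), 22 stromal-like (fibroblast) and 57 immune-like cells, with 76 cells left unnamed, whose cluster was led by haemoglobin genes. The TFC-like cluster was led by Tg but also by Pth and Calca, and 36 of its cells were set aside because markers of C cells, parathyroid or red cells outscored those of TFCs. No IGF gene was used to form the clusters. The summed level of 14 TFC markers was 1624 and 1151 in the TFC-like cells of tissue 1 and 2 and between 117 and 209 in the TFCOs, with UMIs of 14 of 14 markers in each. In tissue 2, 2 TFC-like wells held 268847 and 151110 UMIs, far above the next at 15122, and values that rest on them are given without them too. The plates shared the same 384 barcodes, and between TFCO cells of different plates with the same barcode the correlation of log values was 0.061 for Igf1, 0.065 for Igf1r and 0.057 for Igfbp5. These lay above the limit of 0.05 used here, as did 4174 of the 19498 genes with a value, so this was not particular to them. It was at most 0.023 for the other members with a value.

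**Figure D1:**
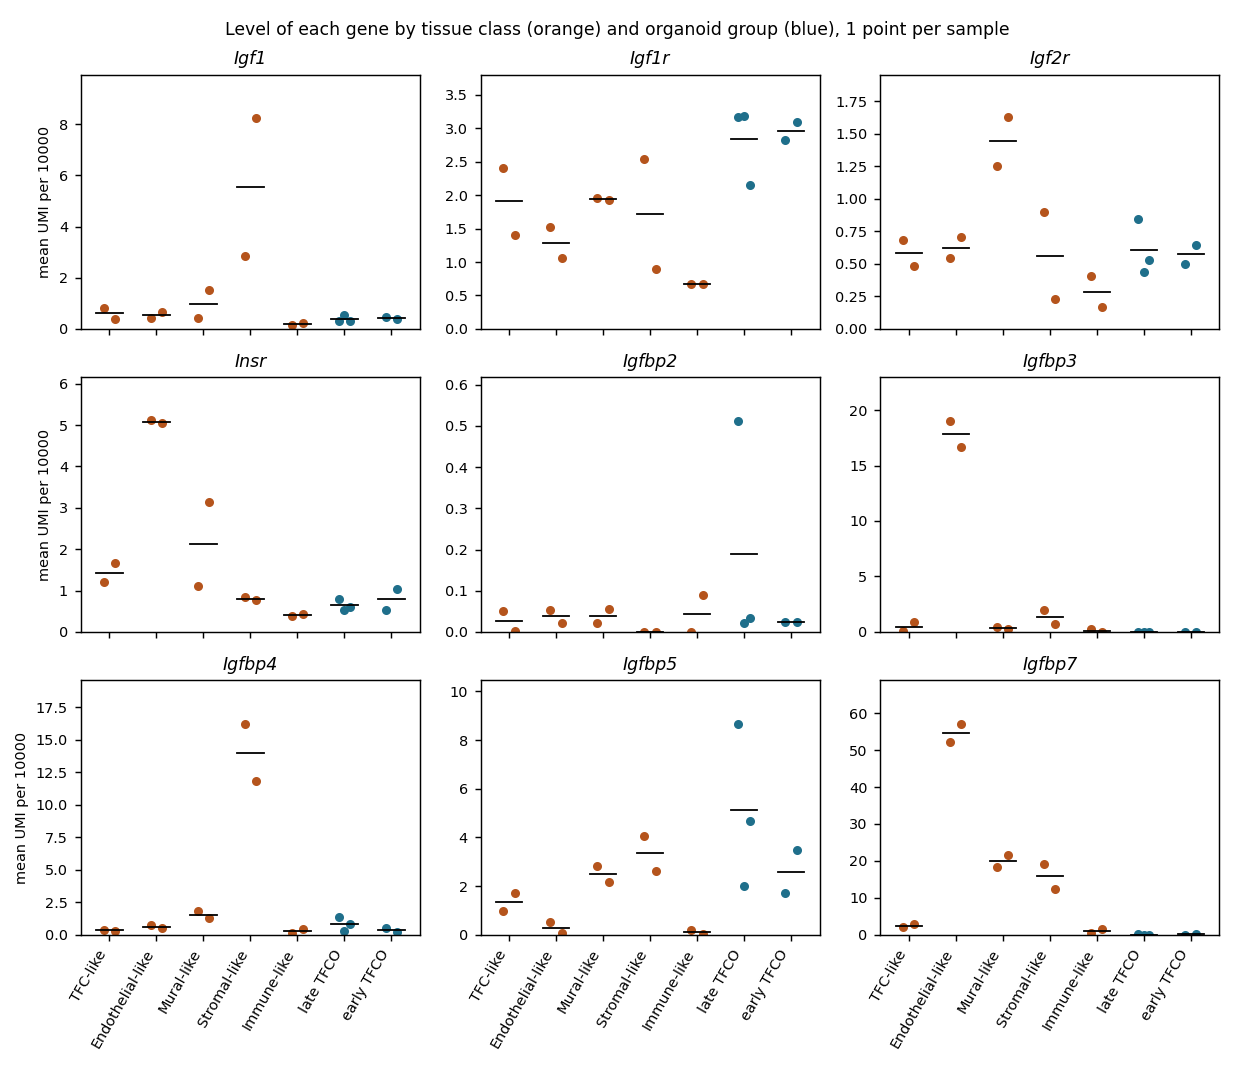
Mean UMIs per 10000 of each gene (vertical axes, linear and different for each gene) in the 5 tissue classes and the 2 organoid groups. Points are samples and bars are their means. Igfbp3 and Igfbp7 stood highest in endothelial-like cells of both tissue samples, Igf1 and Igfbp4 in stromal-like cells, and Igf1r and Igfbp5 had their highest means in organoids.

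The members divided by cell class in tissue, with the same class highest in both samples for most of them. These classes were not tested against each other, since there were 2 tissue samples and the levels are given as a description. Igfbp3 was an endothelial-like transcript, Igfbp7 was highest in endothelial-like cells and was also found in mural-like and stromal-like cells, and Igf1 and Igfbp4 were highest in stromal-like cells. The promoters of 4 binding proteins, all those with a row but Igfbp2, are shown, as the 250 bases before the start site in RefSeq, 5′ to 3′, with capitals for a TATA box (TATAAA) or a GC box (GGGCGG) on either strand.

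Igfbp3 (GRCm38.p6, chr11:7213924-7214173, minus strand): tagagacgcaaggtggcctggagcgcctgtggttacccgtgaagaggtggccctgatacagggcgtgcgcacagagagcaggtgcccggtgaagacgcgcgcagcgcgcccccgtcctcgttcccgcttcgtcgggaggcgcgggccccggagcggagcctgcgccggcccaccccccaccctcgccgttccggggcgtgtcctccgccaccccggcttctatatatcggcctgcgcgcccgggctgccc

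Igfbp7 (GRCm38.p6, chr5:77408046-77408295, minus strand): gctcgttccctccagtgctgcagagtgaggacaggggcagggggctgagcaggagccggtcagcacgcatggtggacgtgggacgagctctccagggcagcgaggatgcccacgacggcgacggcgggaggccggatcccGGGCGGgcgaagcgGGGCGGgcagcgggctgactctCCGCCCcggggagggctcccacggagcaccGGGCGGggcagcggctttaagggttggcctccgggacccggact

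Igfbp4 (GRCm38.p6, chr11:99040994-99041243, plus strand): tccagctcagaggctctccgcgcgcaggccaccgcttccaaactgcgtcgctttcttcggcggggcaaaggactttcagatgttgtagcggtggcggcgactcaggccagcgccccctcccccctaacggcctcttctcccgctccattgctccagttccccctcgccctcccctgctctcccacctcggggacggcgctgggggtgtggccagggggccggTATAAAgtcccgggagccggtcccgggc

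Igfbp5 (GRCm38.p6, chr1:72874866-72875115, minus strand): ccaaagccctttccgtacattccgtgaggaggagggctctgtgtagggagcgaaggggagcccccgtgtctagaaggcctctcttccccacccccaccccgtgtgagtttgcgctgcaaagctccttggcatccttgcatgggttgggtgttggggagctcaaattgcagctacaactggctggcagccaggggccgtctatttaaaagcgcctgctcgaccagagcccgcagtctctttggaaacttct

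The Igfbp7 window held 4 GC boxes, and GGGCGG was found in 32.9% of 27018 promoters of the same length. The Igfbp4 window held TATAAA 28 bases before the start site, a motif found in 13.0% of promoters. The windows of Igfbp3 and Igfbp5 held neither of these exact runs of letters, and other forms of a TATA box were not searched for. The letters TGACG (the core of a cyclic AMP response element), GTAAACA (FOXO) and CCGGAAG (ETS) were in none of the 4 windows, against 17.9, 3.09 and 7.05% of promoters. GC content was 73.2% for Igfbp3, 74.0% for Igfbp7, 69.2% for Igfbp4 and 58.8% for Igfbp5, with a median of 52% over all promoters. In the GENCODE annotation of GRCm38, Igfbp3 lies at chr11:7206086-7213923, Igfbp7 at chr5:77349240-77408041, Igfbp4 at chr11:99041244-99054392 and Igfbp5 at chr1:72857932-72874884. Igfbp2 (chr1:72824503-72852474) ends 5457 bases from the 3′ end of Igfbp5, with the genes facing each other.

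The ligand Igf1 (chr10:87858265-87937042) was at 2.86 and 8.24 UMIs per 10000 in stromal-like cells of tissue 1 and 2, a mean of 5.55 ± 3.80 (SD, n = 2). These values rest on few cells: 22 stromal-like cells held 67 Igf1 UMIs, and a single cell held 72.5% of those in tissue 1 and another 88.9% of those in tissue 2. Mural-like cells followed at 0.437 and 1.52, below both stromal-like values. TFC-like cells were at 0.834 and 0.386, endothelial-like cells at 0.417 and 0.658 and immune-like cells at 0.139 and 0.238. In TFCOs Igf1 was at 0.298, 0.548 and 0.315 in late TFCO 1 to 3 and at 0.450 and 0.380 in early TFCO 1 and 2. The ranges of TFCOs, TFC-like, mural-like and endothelial-like cells overlapped one another. At these levels Igf1 lay under the floor of the tissue comparison (a mean of 0.5), and the difference from TFC-like tissue cells did not pass an exact two-sided permutation test over 5 TFCOs and 2 tissue samples (difference -0.212 UMIs per 10000, unadjusted p = 0.286), a test that cannot go below 0.0952 with these numbers of samples. Without tissue 2, Igf1 reached that floor only through its level in tissue 1 (11 UMIs in 40 cells), with a log2 difference of -0.39. With 1 tissue sample that fit cannot measure the spread of tissue, so no test result is drawn from it. The antisense gene Igf1os lies within Igf1 on the other strand with no exon shared, and its level was at most 0.0939 in TFCOs.

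Igf1r (chr7:67952827-68233668), the receptor for IGF1, had its highest means in TFCOs. It was at 3.17, 3.18 and 2.15 in late TFCO 1 to 3 and at 2.82 and 3.09 in early TFCO 1 and 2, with UMIs in 62.9 to 86.1% of cells. In tissue it was at 2.40 and 1.41 in TFC-like cells, 1.95 and 1.92 in mural-like cells, 2.54 and 0.891 in stromal-like cells, 1.52 and 1.06 in endothelial-like cells and 0.669 and 0.665 in immune-like cells. Among the named tissue classes, both immune-like values lay below all the others. The range of late TFCOs overlapped that of TFC-like cells, since late TFCO 3 was below tissue 1.

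Insr (chr8:3122061-3279617), the insulin receptor, was highest in endothelial-like cells at 5.11 and 5.05 UMIs per 10000 (5.08 ± 0.0409 SD, n = 2). Both endothelial-like clusters held it, with 4.27 and 4.83 in a cluster with Aplnr and Car4 among its 10 leading genes, and 5.92 and 5.39 in a cluster led by Ccl21a and Aqp1. Ccl21a is a gene of lymphatic endothelium, but Sema3g, Selp and Sox17 were also among the 10 leading genes of that cluster. In the clustering with predicted genes kept, 60 cells led by Ccl21a stayed unnamed, and Aqp1, Selp and Sox17 were among the leading genes of another, endothelial-like cluster of 12 cells. The values of the Ccl21a/Aqp1 cluster are thus not those of lymphatic cells alone. Mural-like cells were at 1.10 in tissue 1 and 3.14 in tissue 2, and the higher value in tissue 2 was seen in both mural-like clusters. TFC-like cells were at 1.20 and 1.66, stromal-like cells at 0.848 and 0.764 and immune-like cells at 0.387 and 0.425. The unnamed cells were at 4.36 and 4.36, with an endothelial marker sum of 49.3 and 45.2 against 184 and 180 in endothelial-like cells. TFCOs were at 0.806, 0.519 and 0.608 in late and 0.540 and 1.05 in early samples, all below both TFC-like values.

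Igf2r (chr17:12682406-12769664), the receptor that clears IGF2, was at 1.25 and 1.63 in mural-like cells, 2.31 times the next class mean. All other named classes and organoid groups, apart from immune-like cells at 0.403 and 0.170, had means between 0.561 and 0.624 with overlapping ranges. The 5 TFCOs spanned 0.435 to 0.847. The noncoding gene Airn overlaps Igf2r on the other strand with no exon shared.

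Igfbp3, the main carrier of IGFs in serum, was at 19.0 and 16.7 UMIs per 10000 in endothelial-like cells (17.8 ± 1.64 SD, n = 2), where 1443 of its 1566 tissue UMIs lay (92.1%, while these cells held 29.7% of all tissue UMIs). After thinning each cell to 1000 UMIs, it was found in 60.4% (95% exact interval 50.4 to 69.7) and 62.3% (52.3 to 71.5) of endothelial-like cells. The cluster with Aplnr and Car4 was at 22.6 and 18.7 and that led by Ccl21a and Aqp1 at 15.6 and 13.6, the same order in both samples. Far lower were the unnamed cells at 2.01 and 0.754, stromal-like cells at 1.93 and 0.721, TFC-like cells at 0.0652 and 0.891 and mural-like cells at 0.487 and 0.240, and the TFC-like range overlapped each of the others. In TFCOs Igfbp3 was all but undetected: 1 UMI in late TFCO 2 and none in the other 4 samples, 1 UMI among 14495577. Zero counts allow levels of up to 0.0153 in late TFCO 1, 0.0128 in late TFCO 3, 0.00959 in early TFCO 1 and 0.0126 in early TFCO 2, counting error only.

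Igfbp7, a secreted protein of vessel walls and basement membranes, was at 52.3 and 57.0 in endothelial-like cells, 18.5 and 21.7 in mural-like cells, 19.2 and 12.5 in stromal-like cells, 2.13 and 2.87 in TFC-like cells and 0.518 and 1.56 in immune-like cells. Within a class its clusters differed by more than the samples did. Among endothelial-like cells it was at 71.2 and 72.0 in the cluster with Aplnr and Car4, and at 34.1 and 34.2 in that led by Ccl21a and Aqp1. Among mural-like cells it was at 30.8 and 33.0 in the cluster with Kcnj8 and Rgs5, genes of pericytes, and at 5.57 and 8.68 in that led by Myh11 and Acta2, genes of smooth muscle. TFCOs were at 0.116, 0.0805 and 0.0677 in late and 0.0896 and 0.199 in early samples, below every tissue class. Igfbp7 shares exonic sequence with Polr2b on the opposite strand, and whether the counting used strand is not given in the sources used here. Polr2b itself was between 0.538 and 0.712 in TFCOs and 0.143 and 0.834 in TFC-like cells and 0.734 and 0.468 in endothelial-like cells.

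**Figure D2:**
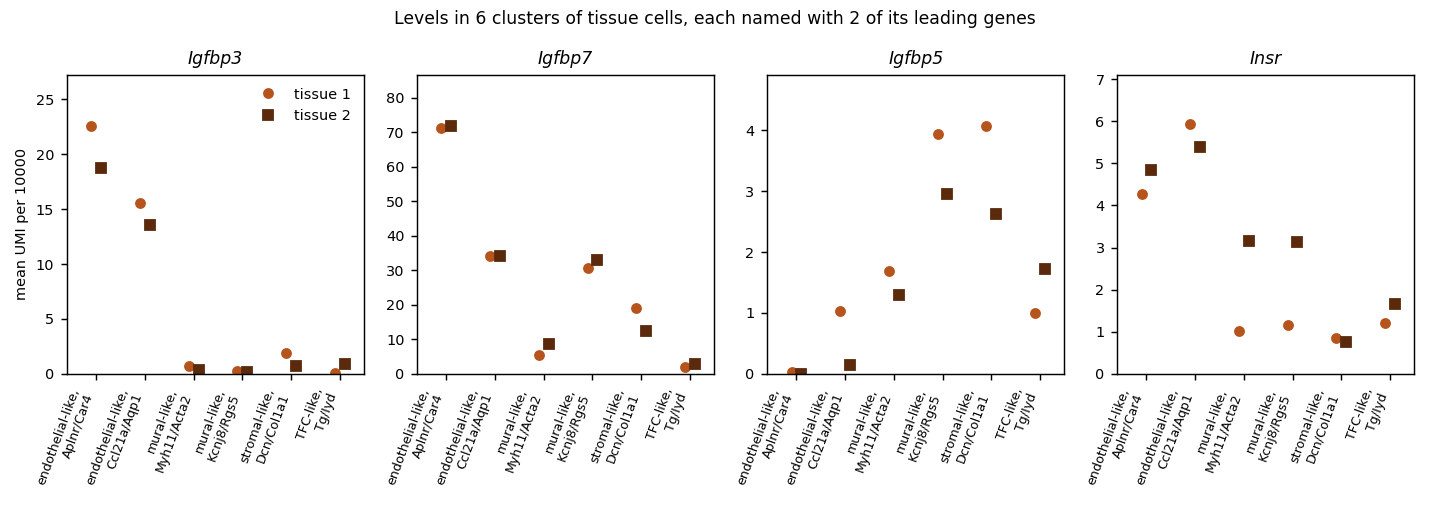
Mean UMIs per 10000 (vertical axes, linear from 0) of 4 genes in 6 clusters of tissue cells, each named with its class and 2 of its 10 leading genes. Circles are tissue 1 and squares tissue 2. Igfbp7 was near 71 to 72 in the Aplnr/Car4 cluster and near 34 in the Ccl21a/Aqp1 cluster in both samples, and the Kcnj8/Rgs5 cluster held more Igfbp7 and Igfbp5 than the Myh11/Acta2 cluster.

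Igfbp4 was a stromal-like transcript at 16.2 and 11.8 UMIs per 10000 (14.0 ± 3.10 SD, n = 2), where 22 cells held 177 of its 366 tissue UMIs (48.4%, against 3.93% of all tissue UMIs). Mural-like cells followed at 1.84 and 1.27, then endothelial-like cells at 0.743 and 0.529, TFC-like cells at 0.398 and 0.306 and immune-like cells at 0.141 and 0.419. TFCOs spread widely: 1.35, 0.294 and 0.862 in late and 0.507 and 0.200 in early samples, a range of 6.77 times that included both TFC-like values. UMIs of Igfbp4 were in 10.2 to 27.7% of TFCO cells, and in each TFCO sample the 10% of cells with the highest levels held at least 73.1% of the summed level.

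Igfbp5, the most conserved of the binding proteins and one held in extracellular matrix, had its highest level in late TFCO 1 at 8.65. Late TFCO 2 was at 2.03 and late TFCO 3 at 4.69, and early TFCO 1 and 2 were at 1.71 and 3.47. In tissue it was at 4.07 and 2.62 in stromal-like cells, 2.84 and 2.18 in mural-like cells, 0.997 and 1.72 in TFC-like cells, 0.541 (12 of 14 UMIs in 1 cell) and 0.0575 in endothelial-like cells and 0.194 and 0.0333 in immune-like cells. The Kcnj8/Rgs5 mural-like cluster was at 3.94 and 2.95 and the Myh11/Acta2 cluster at 1.69 and 1.29, the order seen for Igfbp7. Late TFCO 2 and early TFCO 1 were lowest among TFCOs and were also the deepest libraries, with the largest shares of cycling cells (14.2 and 16.6%, against 4.89, 5.79 and 8.63% in late TFCO 1, late TFCO 3 and early TFCO 2), and their part in this order was not tested. After thinning to 1000 UMIs, Igfbp5 was found in 46.9, 16.4 and 29.3% of late and 12.3 and 24.6% of early TFCO cells, the same order as the levels, and in 7.50 and 10.6% of TFC-like tissue cells.

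Igfbp2 was near the detection limit in all but 1 sample. In tissue it had 10 UMIs over all classes. Late TFCO 1 was at 0.511, with 109 UMIs in 37 of 307 cells, and the other 4 TFCOs were between 0.0225 and 0.0335, with 7 to 10 UMIs each. In late TFCO 1 the 10% of cells with the highest levels held 96.1% of the summed level, 18 cells had at least 2 UMIs, and the highest cell was at 17.1 UMIs per 10000. Thinned to 1000 UMIs, Igfbp2 was found in 4.89% of cells of late TFCO 1 and at most 0.426% of those of the other TFCOs. Late TFCO 1 stood apart from both other late TFCOs as well as from the early ones.

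TFCOs were then compared with the TFC-like cells of tissue, to ask how the cultured cells differ from their counterparts in the gland. The fit across 4294 genes (limma, log2 of the sample mean + 1, Benjamini-Hochberg adjusted p under 0.05) tested 6 members, and 1 of them passed: Igfbp7 was lower in TFCOs. Over all genes 26.2% passed, 6.05% lower and 20.2% higher. The mean of Igfbp7 was 0.110 ± 0.0524 over TFCOs (SD, n = 5) against 2.5 ± 0.522 over the TFC-like cells of tissue (SD, n = 2), 22.6 times lower as a ratio of means, with a log2(mean + 1) difference of -1.64 (SE 0.15, 95% interval -1.96 to -1.32, adjusted p = 7.98e-05). It passed under all 12 alternatives run and with any 1 late TFCO left out. Over these and the fits without 1 tissue or 1 early TFCO sample, differences ran from -3.61 to -1.49. Those last fits leave 1 sample in a group, so no test result is drawn from them. Without the 2 deepest wells of tissue 2, which held 283 of its 320 UMIs in TFC-like cells there, the difference was -1.60 (adjusted p = 9.21e-05).

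Endothelial markers moved with Igfbp7. TFC-like tissue cells had UMIs of 10 and 11 of 12 endothelial markers, with none of Egfl7, which was at most 0.0513 even in endothelial-like cells. Their summed level was 8.52 and 12.2 in TFC-like cells of tissue 1 and 2 (4.62 and 6.77% of the endothelial-like level) and 1.42 to 2.59 in TFCOs, with 9 to 11 of 12 markers, Cldn5 at 0 in all 5 and Ly6c1 at 0 in 3. Igfbp7 in TFC-like cells was 4.07 and 5.03% of its endothelial-like level, and the part of endothelial RNA in the difference was not tested. Igfbp3 in TFC-like cells was at 0.0652 (1 UMI) in tissue 1 and 0.891 in tissue 2, where 33 of its 43 UMIs were in the 2 deepest wells and 4 of the other 45 cells held the rest (0.886 without the 2 wells). It lay under the floor of the fit. All 5 TFCOs were below both tissue samples, where 50.6% of the genes in the fit did not overlap in either direction. The exact two-sided permutation test gave an unadjusted p of 0.0952 (difference -0.478 UMIs per 10000), the lowest it can give, so that no gene could reach 0.05 in it.

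Of the other tested members none passed in this fit. The mean of Insr was 0.704 ± 0.223 over TFCOs (SD, n = 5) against 1.43 ± 0.327 over TFC-like cells (SD, n = 2), with a log2 difference of -0.50 (SE 0.21, 95% interval -0.96 to -0.05) and an adjusted p of 0.0941. All TFCOs lay below both tissue samples, and 50.6% of all genes tested had groups that did not overlap in either direction. The median difference over all genes tested was 0.22, and with samples centred on their median gene Insr differed by -0.69 and passed (adjusted p = 0.0390), while of all calls 46.6% were higher, against 76.9% without centring. Among other settings with more than 1 sample in each group, Insr passed only with centring, with equal weights and with cells from 500 UMIs. The difference was -0.64 without tissue 1 and -0.61 without early TFCO 2. These 2 fits leave 1 sample in a group, so no test result is drawn from them. With UMIs summed over cells the difference was -0.26 (adjusted p = 0.458), and the separation was lost, with TFC-like values of 1.10 and 0.748 against 0.480 to 0.764 in TFCOs. The summed value of tissue 2 rests in large part on its 2 deepest wells, which held 24 of its 41 Insr UMIs. The other 45 TFC-like cells held 17 Insr UMIs among 127942 UMIs, with a mean over cells of 1.71. Summed values without these wells were not fitted. Igfbp5 was at 4.11 ± 2.81 (SD, n = 5) against 1.36 ± 0.513 (SD, n = 2), a log2 difference of 0.91 (SE 0.55, 95% interval -0.30 to 2.11, adjusted p = 0.240), and it passed only without late TFCO 2 (1.12, adjusted p = 0.0418). Igf1r was at 2.88 ± 0.432 against 1.91 ± 0.704, a log2 difference of 0.44 (SE 0.27, 95% interval -0.14 to 1.02, adjusted p = 0.238). Igf1r passed in no setting that kept both tissue samples. Without tissue 1 its difference was 0.69, and no test result is drawn from that fit. Igfbp4 differed by 0.20 (95% interval -0.43 to 0.82) and Igf2r by 0.00 (-0.38 to 0.39), and differences within those intervals remain possible. Igfbp2, under the floor, gave an unadjusted permutation p of 0.762.

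**Figure D3:**
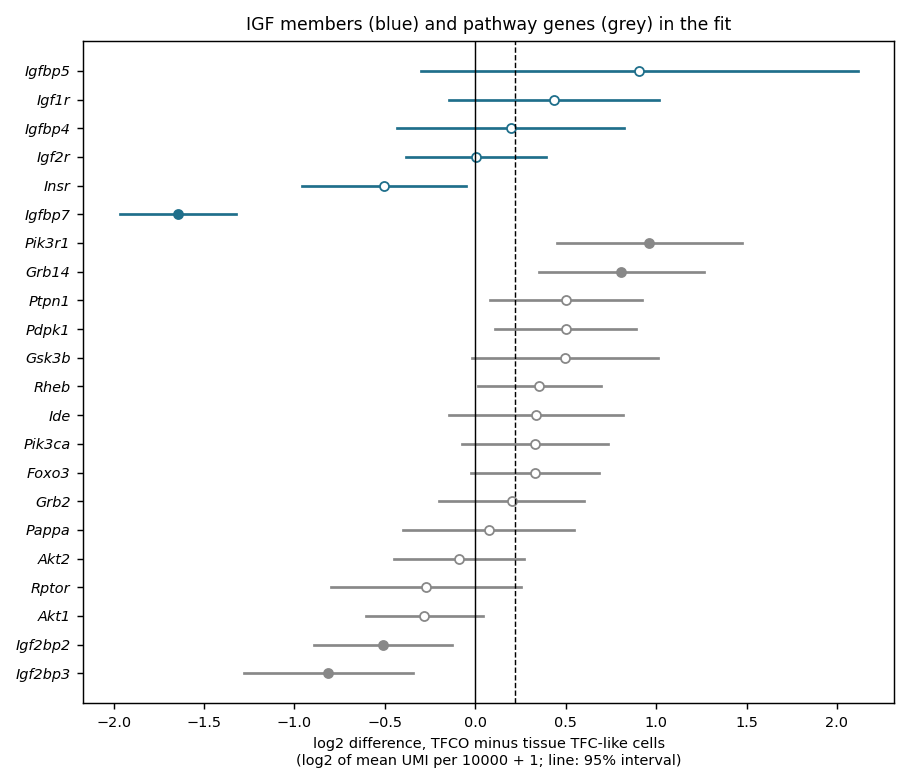
Log2 differences between TFCOs and TFC-like tissue cells (horizontal axis, log2 of mean UMIs per 10000 + 1) for the 6 members tested (blue) and 16 of the pathway genes tested (grey). Lines are 95% intervals, filled points passed at an adjusted p under 0.05, and the dashed line is the median of all genes tested, 0.22. Among the members only Igfbp7 has a filled point, at -1.64, and Insr lies at -0.50 with an open one.

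Other genes of the pathway, only some of them downstream of the receptors, gave a wider view of it. Of 46 other IGF and insulin pathway genes listed, 17 were high enough for the tissue comparison, and 5 passed, 29.4% against 26.2% of all genes. Their median difference was 0.33, with 0.22 over all genes. Among those higher in TFCOs were Pik3r1, the regulatory subunit of PI3-kinase (log2 difference 0.96, SE 0.23, adjusted p = 0.0137), and Grb14, an adaptor that inhibits the insulin receptor (0.81, SE 0.21, adjusted p = 0.0171). Lower in TFCOs were Igf2bp3 and Igf2bp2, which encode proteins that bind Igf2 mRNA and other transcripts (-0.81, SE 0.21, adjusted p = 0.0183, and -0.51, SE 0.17, adjusted p = 0.0496), and their levels followed the well barcode across plates, with correlations of 0.310 and 0.217. Grb14 was between 1.16 and 1.79 in the 5 TFCOs and at 0.584 and 0.388 in TFC-like cells. The receptor substrates Irs1 and Irs2 were too low for the fit. Irs2 was at 0.635, 0.741 and 0.401 in late, 0.71 and 0.40 in early TFCOs and 0.0571 and 0.338 in TFC-like cells. All TFCOs thus lay above both tissue samples, where 50.6% of the genes in the fit did not overlap in either direction. Irs1 was at 0.604 and 0.787 in mural-like and 0.691 and 0.456 in stromal-like cells and between 0.0177 and 0.152 in TFCOs. Those tissue classes are other cell types and not the counterparts of TFCO cells. Igfbp6, named after its values were seen, was at 2.12 and 6.32 in stromal-like cells, where 29 of its UMIs lay, and had 6 UMIs in all TFCOs.

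Late and early TFCOs were compared to ask whether the system shifts with passage. None of 8 members passed (limma on log2 of the mean + 0.1, 12204 genes), and none had an unadjusted p under 0.05. Over all genes 0.0164% passed, 2 genes, and 19.5% had an unadjusted p under 0.05. The late and early ranges overlapped for 8 of 8 members, whereas 39.2% of genes tested did not overlap. The mean of Igfbp4 was 0.836 ± 0.530 over late (SD, n = 3) against 0.353 ± 0.217 over early TFCOs (SD, n = 2), a log2 difference of 0.94 (SE 0.45, 95% interval -0.04 to 1.93, adjusted p = 0.271). With a term shared by late TFCO 2 and early TFCO 1, the 2 samples found alike in earlier results, it was 0.86 (SE 0.25) and passed (adjusted p = 0.0125), as did 1113 of all genes (9.12%, against 0.0164% without the term). That term was chosen from these same samples, so the pass cannot settle whether Igfbp4 differs with passage. Igfbp5 was 5.12 ± 3.34 against 2.59 ± 1.24, a difference of 0.82 (SE 0.48, adjusted p = 0.355), and Igfbp2 0.189 ± 0.279 against 0.0238 ± 0.000331, a difference of 0.80 (SE 0.53, adjusted p = 0.414) that rests on late TFCO 1. The ligand and receptors differed by at most 0.22 in size: Igf1 by -0.11 (95% interval -0.67 to 0.44), Igf1r by -0.08 (-0.63 to 0.47), Igf2r by 0.03 (-0.55 to 0.61) and Insr by -0.22 (-0.83 to 0.38). Igfbp7 differed by -0.35 (-0.92 to 0.22). Of the pathway genes tested, 0 of 38 passed and 7 had an unadjusted p under 0.05, where 19.5% of all genes did.

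Cycling TFCO cells were set against the other cells of the same sample. A cell was called cycling when at least 2 of 20 proliferation markers were found among 1000 of its UMIs, which gave 15, 51 and 14 cells in late and 39 and 27 in early TFCOs. Igfbp5 was lower in the cycling cells of 5 of 5 samples: 6.50 against 8.77 in late TFCO 1, 1.17 against 2.17 in late TFCO 2, 2.46 against 4.83 in late TFCO 3, 1.29 against 1.79 in early TFCO 1 and 3.30 against 3.48 in early TFCO 2. The log2 difference was -0.55 (SE 0.16, 95% interval -0.88 to -0.21), and it did not pass (adjusted p = 0.0852, unadjusted p = 0.00289). It passed in 5 of 9 other settings, among them cells with at least 3 markers (-1.19, SE 0.22, adjusted p = 0.000393) and cells with at least 1 (-0.50, SE 0.10, adjusted p = 0.00646), and it passed without early TFCO 2 (-0.66, adjusted p = 0.0435). None of 7 members passed, and 1 had an unadjusted p under 0.05. Over all 12192 genes 2.48% passed, 1.87% higher and 0.607% lower in cycling cells, and 13.3% had an unadjusted p under 0.05. Igfbp4 in cycling against other cells was at 0.169 and 1.41 in late TFCO 1, 0.265 and 0.298 in late TFCO 2, 0.103 and 0.909 in late TFCO 3, 0.733 and 0.462 in early TFCO 1 and 0.321 and 0.188 in early TFCO 2, on 2 to 29 UMIs in the cycling cells of a sample. It was thus lower in cycling cells of the 3 late TFCOs and higher in those of the 2 early ones. Its overall difference was -0.76 (SE 0.40, adjusted p = 0.422), and the late minus early difference of that difference was -2.20 (SE 0.66, unadjusted p = 0.00233, adjusted p = 0.999). Igf1r differed by -0.08 (95% interval -0.41 to 0.25) and Insr by -0.43 (-0.997 to 0.136). Among the pathway genes 0 of 38 passed and 4 had an unadjusted p under 0.05, where 13.3% of all genes did.

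**Figure D4:**
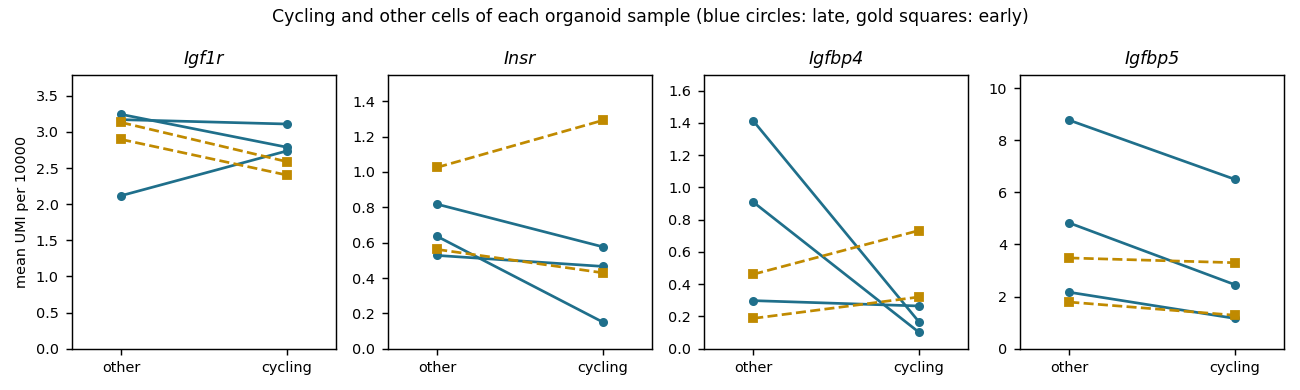
Mean UMIs per 10000 (vertical axes, linear from 0) of 4 genes in the other and the cycling cells of each TFCO. Lines join the 2 classes of a sample, blue circles are late and gold squares early. Igfbp5 is lower in the cycling cells of 5 of 5 samples and Igfbp4 in those of the 3 late ones.

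The genes whose levels over 15 class-by-sample means most resembled each member (Pearson r of log2 of the mean + 1, among 6147 genes) are given as a description, since the classes of a sample share its library. Nearest to Igfbp7 were Col4a1 and Col4a2 (r = 0.975 and 0.974), the chains of basement membrane collagen, and nearest to Igfbp3 were Slc9a3r2 and Plpp3 (0.985 and 0.982). Insr lay nearest to Etl4 and Tcf15 (0.946 and 0.938), and its r with Igfbp3 was 0.826. Nearest to Igf1 were Matn2 and Abca8b (0.967 and 0.954) and to Igfbp4 Il11ra1 and 4930578G10Rik (0.972 and 0.970), and Igf1 and Igfbp4 had an r of 0.855 with each other. The stromal-like means of Igf1 used here rest on 67 UMIs in 22 cells, most of them in a single cell of each sample. Igfbp5 lay nearest to Phlda1 and Cp (0.934 and 0.897), Igf1r to Rbbp7 and A330008L17Rik (0.886 and 0.884), and Igf2r to Arhgap42 and Lpp (0.90 and 0.89).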

How the data were processed

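The authors sequenced SORT-seq libraries, and the submitters' processing notes name Trim Galore 0.4.3, STAR 2.5.3a, Seurat and the mouse build GRCm38 (mm10). The deposited table holds 30879 genes and 2590 cells. Its values are on a natural log scale, made by the authors from UMIs scaled to 10000 per cell with 1 added. The log was undone and each cell divided by its smallest value, which gave whole numbers for 100% of non-zero values (tolerance 0.01), taken as UMIs. A cell whose smallest value stands for more than 1 UMI would be counted too low. No column lacked a sample.

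Cells of at least 1000 UMIs were kept (2035). Tissue cells were clustered with scanpy 1.11.5 (2000 variable genes, 30 components, 15 neighbours, Leiden resolution 1), leaving out members, pathway genes and genes whose level followed the well barcode (correlation above 0.05). Predicted genes and haemoglobins took no part either. A cluster was named by the marker list with the highest median score over its cells, where at least 3 of its markers were found in 10% of cells. The leaving out of predicted genes and the median were chosen after several clusterings had been seen: with all genes, clusters led by predicted genes or by Ccl21a stayed unnamed, and by the mean a haemoglobin-led cluster would have been called erythroid. No doublet caller was run. Cells are not replicates, so sample means were tested with limma (version 3.58.1, R version 4.3.3), with a trend in its empirical Bayes step, Benjamini-Hochberg adjustment and a threshold of 0.05. The tissue comparison took log2(mean + 1), genes at a mean of at least 0.5, and 1 estimated weight for tissue samples (0.444) and 1 for TFCOs (1.38). Late and early TFCOs counted equally in it. The other comparisons took log2(mean + 0.1), genes at 0.1 or more, and equal weights, with the sample as a term for cycling cells. A fold on this scale understates the change of low genes. A fit with only 1 tissue sample gave every sample the same weight and assumed that the lone sample varies like the others. The fits were tested on simulated data. Members under the floor had exact permutation tests. Intervals are 95% exact ones and a count of 0 was given the limit of 3 counts, all for counting error only. Libraries held 1406925 and 1589528 UMIs (tissue), 1985836, 4703472 and 2388697 UMIs (late TFCOs) and 3213871 and 2409001 UMIs (early TFCOs).

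Named genes were the members, the 2 genes most like each member at a mean of at least 1 in some class, Irs1 and Irs2, and up to 20 pathway genes past the threshold. The members and lists were chosen with earlier results of these data known. The values of 1 pathway gene are not reported here, though the counts include it. Promoters came from RefSeq (GRCm38.p6), which matched 8 of the 9 members with a row. Alternatives changed the pseudocount, filter, weights, scaling, UMI minimum, cell classes and samples, and the clustering with predicted genes kept and the fit without the 2 deepest wells were added after seeing the data.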

Additional observations from a re-analysis of the deposited data

Results flagged for a closer look

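Igfbp2 in late TFCO 1, at 0.511 UMIs per 10000, lay far from the other 4 TFCO samples, whose next highest was 0.0335. The gap was 0.978 of the range, above the 95% limit of 0.71 for 5 samples, in a check of 9 members taken over all 5 TFCOs. In the same check Igfbp3 in late TFCO 2, at 0.00180, also exceeded the limit, with a gap of 1 of the range that rests on 1 UMI. Chance alone exceeds the limit in about 1 in 20 groups.

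Wells under 1000 UMIs entered no comparison, and several members had more UMIs in them than a count of 0 allows. In the pooled tissue wells of this depth, the level in UMIs per 10000 was 0.780 for Igf1, 1.07 for Igf1r, 2.63 for Insr, 0.780 for Igfbp3, 0.878 for Igfbp5 and 5.75 for Igfbp7. In the pooled TFCO wells it was 0.585 for Igf1, 2.14 for Igf1r, 0.341 for Igf2r, 1.32 for Insr, 0.195 for Igfbp2, 0.195 for Igfbp4, 2.09 for Igfbp5 and 0.195 for Igfbp7, and 0 for Igfbp3.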

How the results depend on the processing

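No paired analysis was possible because the labels tie no tissue sample to a TFCO and no early TFCO to a late one. The class with the highest level stayed the same for 9 of 9 members in 5 alternatives, and the size of that level moved by more than the spread between samples in 10 of 45 results. Part of this could not move. Leaving out the 2 deepest wells changes only TFC-like values, and TFC-like cells were highest for no member. The other tissue classings leave every TFCO value unchanged, and the added clustering kept the same stromal-like cells. For TFCOs against TFC-like tissue cells, 551 genes passed with a filter at 0.1, 1861 with equal weights, 136 with UMIs summed over cells, 725 with centring and 536 with cells of at least 2000 UMIs, and 829 to 1905 with 1 sample left out (1831 without tissue 1 and 1905 without tissue 2). The number of members that passed was 2 with equal weights, with centring, with cells of at least 500 UMIs and without late TFCO 2. Igf2r turned to -0.0805 with summed UMIs, -0.19 with centring, -0.0453 from 2000 UMIs and -0.0058 in the added clustering, and lay between -0.0872 and 0.0930 with 1 sample left out. For late against early TFCOs, 1 gene passed with a pseudocount of 1, a filter at 0.5, every gene, summed UMIs or all 7 samples in the fit, 72 from 500 UMIs and 1113 with the shared term, where 1 member passed, and 1 to 844 with 1 sample left out (844 without early TFCO 1, and 1 without late TFCO 1, late TFCO 3 or early TFCO 2). Igf2r turned to -0.0099 with summed UMIs, -0.0584 from 2000 UMIs, -0.0116 without cycling cells and -0.0426 with the shared term, and Igfbp7 to 0.0811 from 500 UMIs. With 1 sample left out the range was -0.34 to 0.0137 for Igf1, -0.17 to 0.10 for Igf1r, -0.20 to 0.21 for Igf2r and -0.64 to 0.20 for Insr. For cycling cells, 182 genes passed at a filter of 0.5, 94 with every gene, 578 with summed UMIs and 184 (without late TFCO 3) to 306 with 1 sample left out. The number of members that passed was 1 with at least 1 or 3 markers, markers in all UMIs, summed UMIs or 2000 UMIs, and 0 to 1 with 1 sample left out (1 without early TFCO 2). With markers in all UMIs Igf1r turned to 0.11, Igfbp2 to 0.0448 and Igfbp4 to 0.25, and Igf2r turned to 0.0047 with a pseudocount of 1, 0.0217 with summed UMIs and 0.0351 from 2000 UMIs. With 1 sample left out, Igf1 lay between -0.39 and 0.11 and Igf2r between -0.22 and 0.0771. The cause of these shifts was not tested. Depth limits Igf1, Igfbp2 and Igfbp3 in TFC-like tissue cells, of which there were 87.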
